A study of Mus musculus with 4 samples.

Results

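The 9 genes described here were listed as targets of the miR-17 family of microRNAs by earlier literature, beyond the best-known cell cycle and growth genes. They are Abca1, App, Ncoa3, Pkd2, Zbtb4, Tusc2, Itch, Hif1a and Dpysl2. They were taken by gene symbol from a table of 25121 named genes, of which 10773, all 9 of these among them, had a mean FPKM (a fragment count scaled for transcript length and library size) of at least 1 over the groups. The literature behind each gene was not examined here, so the species and the family member that it concerned are not given. The rule that picks them uses no measured value, but they were chosen with earlier results of these data known. Each symbol had 1 row in the table. All 9 genes were lower with the miR-93 mimic than with the control, by between 3.80% (Itch) and 32.1% (Pkd2) of the control FPKM, and 69.5% of all 10773 genes were also below 0 on the log2 scale. Pkd2 was the only one of the 9 to pass the fold limit used here.

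RNA came from an immortalized line of mouse podocytes, the epithelial cells that wrap the capillaries of the kidney's filter, which had been held under differentiation conditions for 12 days. Cells received a mimic of miR-93 (pre-miR-93) or a nontargeting (NT) control mimic, each at 50 nM, by lipid transfection with Lipofectamine, and RNA was taken after 48 hours. There were 2 libraries per group, and no genotype or other agent separated the groups. A mimic supplies the microRNA from outside the cell, no untransfected cells are among the samples, and the cells are 1 immortalized line.

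The deposited table analysed here gives 1 pooled FPKM per gene and group, as computed by the authors, and no value per library. No spread between replicates, depth or interval could therefore be computed, no test was made, and every difference below is a description of a pair of pooled values. In the table the conditions are called only q1 and q2. Condition q1 was read as the miR-93 mimic from the study, which describes Rps6ka4 (Msk2) mRNA as lower with that mimic. Rps6ka4 (XLOC_012930) had 9.68 FPKM in q1 and 14.7 FPKM in q2. Every direction here rests on that reading, so Rps6ka4 can lend no support of its own to it. In RNA from a whole culture, fewer cells of a type and less RNA per cell cannot be told apart. Of 10 podocyte markers, 6 were over 1 FPKM: Synpo had 158 FPKM in both groups, Actn4 was near 0 on the log2 scale (0.0043), Cd2ap was at −0.23, Podxl at −0.47 (1.66 FPKM with the miR-93 mimic, 2.33 with the NT mimic) and Wt1 at 0.51 (2.06 and 1.42), so these markers did not share a direction and Wt1 was past the upper limit of 0.5 used below. In contrast, Nphs1 (0.164 with the miR-93 mimic, 0.0387 with the NT mimic) and Ptpro were near 0 and Tcf21 was listed at 0, so nephrin, a slit diaphragm protein that defines podocytes in the kidney, was nearly absent as mRNA. Of 13 markers of other kidney and blood cells, 2 were over 1 FPKM, the mesangial marker Pdgfrb (mean 19.6 FPKM, log2 fold change 0.05) and the tubule marker Lrp2 (31.7 FPKM with the miR-93 mimic, 47.5 with the NT mimic, −0.58), and 3 (Umod, Cd3e and Emr1) were listed at 0. The part of these markers in the results was not tested.

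A microRNA guides an Argonaute protein to messenger RNAs, mostly through bases 2 to 8 from its own 5′ end, the seed, which pair with a complementary word in the 3′ untranslated region (UTR). Binding represses translation and shortens the life of the messenger RNA, so part of the effect on a target can be seen in RNA and part only in protein, which was not measured here. Members of the miR-17 family share 1 seed, so a site for 1 member is by sequence a site for the others as well. The mature forms that share the miR-93 seed are shown because every site below is read against them (RefSeq, GRCm38.p6, 5′ to 3′, seed in capitals).
mmu-miR-93-5p: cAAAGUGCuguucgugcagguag
mmu-miR-106b-5p: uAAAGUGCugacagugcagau
mmu-miR-17-5p: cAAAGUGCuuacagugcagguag
mmu-miR-20a-5p: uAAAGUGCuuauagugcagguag
mmu-miR-20b-5p: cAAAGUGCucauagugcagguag
mmu-miR-106a-5p: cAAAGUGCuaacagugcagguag
The 6 differ from each other only outside the capitals. mmu-miR-6383 carries the same bases 2 to 8 and is not of the family by name.

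Sites were sought on the sense strand of the longest annotated 3′ UTR of each gene as the word GCACTTTA (8mer, a full seed match followed by an A opposite base 1 of the microRNA), GCACTTT without that A (7mer-m8), CACTTTA (7mer-A1, bases 2 to 7 and the A) or CACTTT alone (6mer), and each position was counted only in its longest class. All 9 genes held an 8mer or a 7mer-m8, 5 of them an 8mer. Among the 10020 genes over 1 FPKM with a 3′ UTR, 2255 (22.5%) held a site of 7 or 8 bases and 461 (4.60%) an 8mer. The UTRs of the 9 were long, with a median of 2481 bases (1200 to 5646) against 1206 bases for all genes. Of the 5030 genes with a UTR of at least 1200 bases, 36.4% held a site of 7 or 8 bases and 7.65% an 8mer. Because the genes were taken from literature on targets, the presence of sites is a property of that choice and not a finding.

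The windows of 28 bases that hold each site of 7 or 8 bases in the 9 genes show what the mimic could pair with (GENCODE M21 on GRCm38, sense strand, 5′ to 3′, match to the microRNA in capitals). A final A in the capitals makes an 8mer.
Pkd2: aattgttataattttctGCACTTTAatt
Tusc2: ccctcctagaagctacaGCACTTTAcaa
Zbtb4 8mer: cgtaaatcttgtttctgGCACTTTAgaa
Zbtb4 first 7mer-m8: gaggtgtcctgtggctaaGCACTTTctc
Zbtb4 next 7mer-m8: cccctcctctgtctctttGCACTTTtct
Abca1: attggccctcattccaaGCACTTTAtgc
Ncoa3 8mer: ccaatgtgcagccaagcGCACTTTActg
Ncoa3 7mer-m8: tctttaccagagaactacGCACTTTgtt
App: tatccctgttcatcataaGCACTTTtac
Dpysl2: ttgttttaaaggtaaattGCACTTTtaa
Hif1a: tatgatgtttggttttatGCACTTTgtc
Itch: ctttagtaactgatgaatGCACTTTgac
Of the 9 genes, 7 held a single site of 7 or 8 bases, Zbtb4 held 3 and Ncoa3 held a pair.

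**Figure D1:**
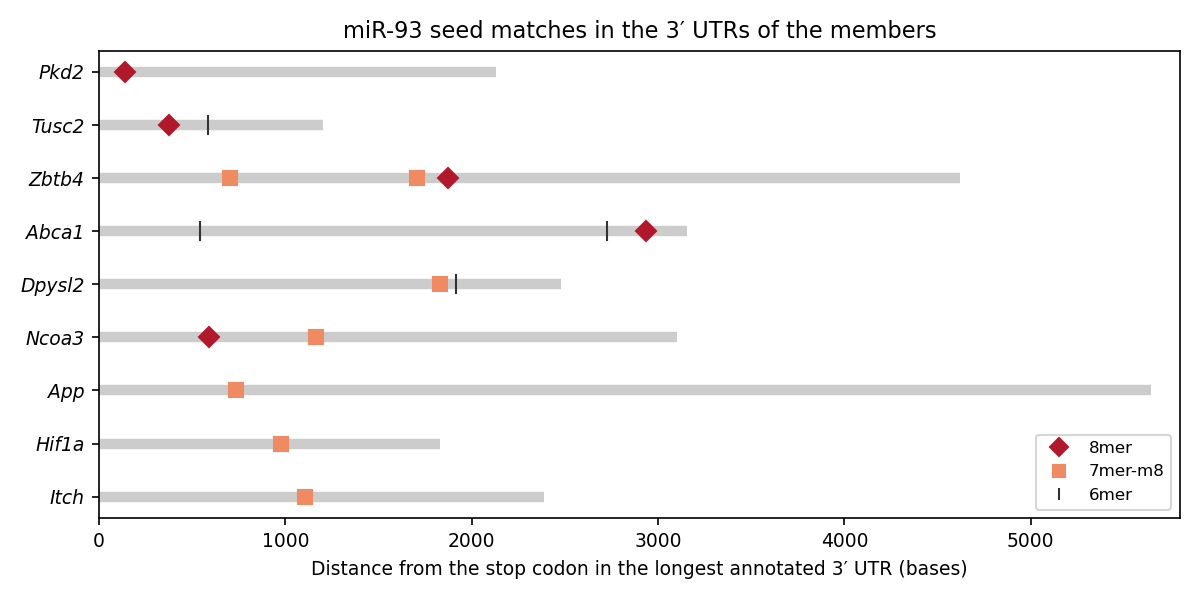
Longest annotated 3′ UTR of each of the 9 genes (grey bar, bases from the stop codon on the x axis), with 8mer (diamond), 7mer-m8 (square) and 6mer (tick) matches to the miR-93 seed. Pkd2 carries its only match within the first 140 bases, Abca1 carries its 8mer 218 bases from the end of the UTR, and App has the longest UTR, 5646 bases, with 1 match.

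Over the 9 genes the median log2 fold change (miR-93 mimic over NT mimic, from FPKM plus 0.1) was −0.25, with the middle of the genes between −0.38 (25th percentile) and −0.14 (75th percentile). The median of all 10773 genes was −0.09, with −0.20 and 0.03 at the same percentiles. The 9 genes thus lay 0.17 below all genes by the median (difference −0.17), and 8 of 9 were below the all-gene median, Itch being the exception. With a fold limit of 0.5 on the log2 scale, the size limit in the study's methods, 1 of the 9 was past it downward, beside 3.77% of all genes, and 0 were past it upward, beside 1.83%. A smaller limit of 0.25 was passed downward by 5 of 9, Pkd2, Tusc2, Zbtb4, Abca1 and Dpysl2, beside 17.4% of all genes. The median of all genes with an 8mer was −0.26. The 25th percentile of those with a 7mer-m8 at best was −0.29. Both of these values also lie past the smaller limit. Abca1 and Dpysl2 were inside that smaller limit with a pseudocount of 1 (−0.24 and −0.22) and relative to the all-gene median (−0.19 and −0.17). With differences taken relative to the all-gene median, none of the 9 passed 0.5, Pkd2 was at −0.47, Hif1a at −0.0083 and Itch at 0.032, and the split of all genes past 0.5 turned from 3.77% lower and 1.83% higher to 2.39% lower and 2.51% higher.

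**Figure D2:**
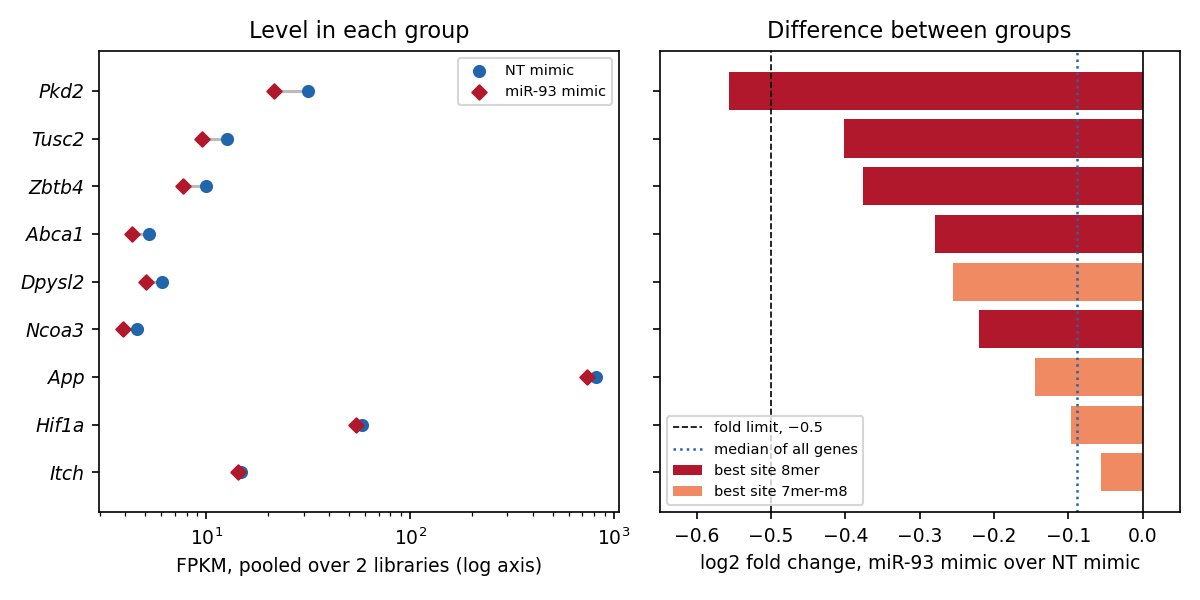
Left, FPKM of the 9 genes on a log axis, pooled over 2 libraries per group (circles NT mimic, diamonds miR-93 mimic). Right, their log2 fold changes (bars, colored by best site), with the fold limit (dashed) and the median of all genes (dotted); the bar of Pkd2 is the only one past the dashed line, and that of Itch stops short of the dotted one. There are no error bars because the table gives no value per library.

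Of the 9 genes, 3 encode proteins of membranes. Pkd2 encodes polycystin-2, a cation channel of the primary cilium and endoplasmic reticulum whose loss causes autosomal dominant polycystic kidney disease. Pkd2 (XLOC_019298, mm9 chromosome 5, 104888475 to 104934838) had 21.5 FPKM with the miR-93 mimic and 31.7 FPKM with the NT mimic. The level was 1.47-fold lower with the miR-93 mimic, a log2 fold change of −0.56. Only 2.74% of all genes, and 2.40% of the 3373 genes within 2-fold of its mean FPKM, were below that value. Its 8mer (GRCm38 chromosome 5, 104503821 to 104503828, plus strand) stands at bases 133 to 140 of a UTR of 2131 bases, the nearest to a stop codon of all those printed above, and the 30 bases on each side were 70.0% A or U. Among its relatives, Pkd1, which encodes the partner of the channel, polycystin-1, had 5.87 FPKM with the miR-93 mimic and 9.82 FPKM with the NT mimic (−0.73) and also held an 8mer. Before centering on the all-gene median, both polycystin partners were past the fold limit on the same side. Of the 4 listed genes over 1 FPKM out of 6 related ones, Pkd1 alone was past it, and the others were Pkhd1, the gene of recessive polycystic kidney disease, at −0.21, and the glucosidase II subunits Ganab at −0.17 and Prkcsh at 0.01. The channel paralogues Pkd2l1 and Pkd2l2 were below 1 FPKM.

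Abca1 encodes the transporter that hands cellular cholesterol to lipid-poor apolipoprotein A-I. Abca1 (XLOC_018124, mm9 chromosome 4, 53043660 to 53172795) had 4.31 FPKM with the miR-93 mimic and 5.25 FPKM with the NT mimic. It was 17.9% lower (−0.28), and 14.2% of all genes were below that value. It was among the 3 genes of the set with the lowest levels, and a low FPKM rests on fewer fragments. Its 8mer (GRCm38 chromosome 4, 53031005 to 53031012, minus strand) lies at bases 2931 to 2938, with a pair of 6mers before it. Among 7 of 10 listed genes of cholesterol efflux over 1 FPKM, 0 were past the limit in either direction and the median was −0.15. The lowest were the transporter Abca7 (−0.25, no site) and the late endosomal cholesterol exporter Npc1 (−0.25, 7mer-A1). The highest were Npc2 (−0.04) and the lipoprotein receptor Scarb1 (0.10). Abca1 was below all 7. Abcg1, the transporter that loads larger lipoprotein particles, had 0.287 and 0.254 FPKM in the miR-93 and NT groups, too low to be read.

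App encodes the amyloid precursor protein, a type I membrane protein cut by secretases. App (XLOC_010099, mm9 chromosome 16, 84954687 to 85174253) was by far the most abundant of the 9, with 735 FPKM with the miR-93 mimic and 812 FPKM with the NT mimic, above 99.7% of all genes by mean FPKM. It was 9.53% lower (−0.14), a value that 36.1% of all genes were below. Its 7mer-m8 (GRCm38 chromosome 16, 84954596 to 84954602, minus strand) is at bases 729 to 735 of the longest UTR, and 5 of 6 annotated transcripts with a UTR hold it. The shortest of these UTRs, of 687 bases, ends before it. The paralogue Aplp2 had 271 and 277 FPKM in the miR-93 and NT groups (−0.03), with a 7mer-A1 only. Over 11 of 12 listed genes of the family and its secretases the median was −0.03 and 0 passed the limit in either direction. The β-secretase Bace1 was the lowest (−0.28, 7mer-m8), followed by the γ-secretase subunit Ncstn (−0.16), and the adaptor Apbb1 (0.04) and Bace2 (0.35, 7mer-m8) were the highest.

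A second set of 3 acts on transcription. Ncoa3 encodes SRC-3, a p160 coactivator that brings histone acetyltransferases to nuclear receptors. Ncoa3 (XLOC_014364, mm9 chromosome 2, 165818136 to 165981156) had 3.89 FPKM with the miR-93 mimic and 4.55 FPKM with the NT mimic, the lowest level of the 9 and 14.4% lower with the miR-93 mimic (−0.22). It holds an 8mer (GRCm38 chromosome 2, 166070731 to 166070738, plus strand) at bases 588 to 595 and a 7mer-m8 at bases 1161 to 1167. The paralogues Ncoa1 (2.68 FPKM in both groups) and Ncoa2 (7.33 with the miR-93 mimic, 7.34 with the NT mimic) had only 6mers and log2 fold changes of 0.0016 and −0.0023. Ncoa3 was the only p160 gene of the 3 with a site of 7 or 8 bases. It was also the only one of the 3 below the all-gene median, and a link between site and value was not tested. Of the 6 listed coactivators and partners, 0 passed the limit. The lowest were the arginine methyltransferases Carm1 (−0.41) and Prmt1 (−0.27), neither of which holds a site. Both were lower than Ncoa3. The assembled locus of Ncoa3 is 163 kb long, 2.02 times the RefSeq gene, and overlaps the row of the neighbouring heparan sulfatase gene Sulf2, which had 83.9 and 85.2 FPKM in the miR-93 and NT groups (−0.02). How much of the low Ncoa3 value came from fragments of Sulf2 was not tested.

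Zbtb4 encodes a zinc finger repressor that binds methylated CpG. Zbtb4 (XLOC_003315, mm9 chromosome 11, 69579413 to 69597528) had 7.67 FPKM with the miR-93 mimic and 9.98 FPKM with the NT mimic. It was 23.2% lower (−0.38), with 7.75% of all genes below it. It had more sites of 7 or 8 bases than any other of the 9, an 8mer (GRCm38 chromosome 11, 69781271 to 69781278, plus strand) at bases 1870 to 1877 and 7mer-m8 matches at bases 698 to 704 and 1705 to 1711. The 8mer sits in sequence that is 71.7% A or U and the others in 43.3% and 45.0%, against a median of 56.7% for all 481 8mer sites and all 1312 7mer-m8 sites of the genes over 1 FPKM. Of 4 annotated transcripts with a UTR, 1 holds all 3 of these sites, 1 holds a single 7mer-m8 and the others hold none of 7 or 8 bases. Its relative Zbtb33 (Kaiso), which also binds methylated CpG, had 6.22 and 6.35 FPKM in the miR-93 and NT groups (−0.03), with a 7mer-A1.

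Hif1a encodes the oxygen-regulated subunit of hypoxia-inducible factor 1, which is controlled mainly through the stability of the protein. Hif1a (XLOC_005209, mm9 chromosome 12, 75008853 to 75048517) had 54.0 FPKM with the miR-93 mimic and 57.8 FPKM with the NT mimic. It was 6.45% lower (−0.10), close to the median of all genes, and 47.7% of them were below it. Its 7mer-m8 (GRCm38 chromosome 12, 73946678 to 73946684, plus strand) is at bases 975 to 981, and 2 of 3 annotated transcripts with a UTR hold it. Around Hif1a, 1 of 6 partners over 1 FPKM, of 8 listed, was past the limit downward and 0 upward, with a median of −0.16. That gene was Hif1an (FIH), the asparagine hydroxylase that blocks the HIF transactivation domain, at 9.04 FPKM with the miR-93 mimic and 17.7 FPKM with the NT mimic (−0.96, 7mer-m8). Next was Vhl, the ubiquitin ligase subunit that recognizes hydroxylated HIF (−0.25, 7mer-m8), and the highest were Egln2 (−0.11) and the dimer partner Arnt (−0.07). The inhibitors Hif1an and Vhl were thus further below the control than Hif1a was. The same held for the other listed partners over 1 FPKM except Arnt, namely Arnt2 (−0.17), Egln1 (−0.14) and Egln2. Among 13 of 14 listed HIF target genes over 1 FPKM, 0 passed the limit and the median was −0.06, from Pgk1 and Ero1l (−0.25 each) to Adm (0.21) and the glucose transporter Slc2a1 (0.34). The paralogue Epas1 (HIF-2α) had 0.926 and 0.630 FPKM in the miR-93 and NT groups, below the minimum used here.

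The remaining 3 genes act in growth control, protein turnover and the cytoskeleton. Tusc2 (Fus1) encodes a small mitochondrial protein known as a tumor suppressor. Tusc2 (XLOC_026602, mm9 chromosome 9, 107456986 to 107470743) had 9.52 FPKM with the miR-93 mimic and 12.6 FPKM with the NT mimic. It was 24.5% lower (−0.40), and 6.51% of all genes were below it. Its 8mer (GRCm38 chromosome 9, 107565284 to 107565291, plus strand) is at bases 372 to 379 of the shortest UTR of the set, 1200 bases, in sequence that was 38.3% A or U, below the 10th percentile (43.3%) of all 8mer sites. A shorter annotated transcript with a UTR of 84 bases lacks it. The assembled locus, 13.8 kb, is 4.82 times the RefSeq gene and overlaps the row of its neighbour Rassf1, also a tumor suppressor gene, which had 65.6 and 58.9 FPKM in the miR-93 and NT groups (0.16). Rassf1 differed from Tusc2 in direction and was the more abundant by FPKM, and the part of either locus in the other's value was not tested. Among 3 of 6 listed neighbours over 1 FPKM, 0 passed the limit, while the listed Hyal1 and Nprl2 had no row of their own. The hyaluronidase gene Hyal2 was at −0.32 (7mer-m8) and Cyb561d2 at −0.14.

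Itch encodes a HECT ubiquitin ligase of the NEDD4 family. Itch (XLOC_014268, mm9 chromosome 2, 154959216 to 155052590) had 14.3 FPKM with the miR-93 mimic and 14.8 FPKM with the NT mimic. It was 3.80% lower (−0.06), the smallest difference of the 9, and 57.7% of all genes were below it. Its 7mer-m8 (GRCm38 chromosome 2, 155225568 to 155225574, plus strand) is at bases 1102 to 1108 and stands in both annotated transcripts. Of the other NEDD4 ligases and adaptors, 0 of 8 over 1 FPKM were past the limit, and their median was −0.06. They ran from Smurf1 (−0.18) and Wwp2 (−0.17) to the adaptor Ndfip1 (0.09) and Wwp1 (0.28). Nedd4 itself had 214 and 222 FPKM in the miR-93 and NT groups (−0.05) without a site, and Nedd4l, which holds an 8mer, was also at −0.06. Among 6 of 8 listed proteins that Itch is known to ubiquitinate, 0 passed the limit by mRNA. Txnip (−0.44, 8mer) and the caspase inhibitor Cflar (−0.36) were the lowest, and Notch1 (−0.02) and Jun (0.10) the highest.

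Dpysl2 (CRMP2) encodes a tubulin-binding protein known from axon growth. Dpysl2 (XLOC_008056, mm9 chromosome 14, 67421700 to 67487437) had 5.08 FPKM with the miR-93 mimic and 6.08 FPKM with the NT mimic. It was 16.5% lower (−0.25), and 16.8% of all genes were below it. Its 7mer-m8 (GRCm38 chromosome 14, 66803512 to 66803518, minus strand), at bases 1827 to 1833, lies in the most A and U rich sequence of the sites printed above, at 80.0% (90th percentile of all 7mer-m8 sites, 71.7%). The 7mer-m8 of Hif1a was also above that percentile, while Hif1a was at −0.10, close to the median of all genes. The flanks of the App (−0.14) and Itch (−0.06) sites were at the median of the class, 56.7%. Among the 8mers, that of Abca1 was above the class median and that of Ncoa3 below it. A link between flanking sequence and fold change was not tested. The assembled locus of Dpysl2, 65.7 kb, is 0.61 times the length of the RefSeq gene. The part of this in the Dpysl2 value was not tested. Dpysl2 had the lowest log2 fold change of the 4 genes without an 8mer. Its paralogue Dpysl3, which has only a 6mer, had 13.2 FPKM with the miR-93 mimic and 13.1 FPKM with the NT mimic (0.00), and the other 3 family members listed were under 1 FPKM. The kinases that phosphorylate CRMP2, Cdk5 (−0.10) and Gsk3b (−0.02), were inside the limit.

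**Figure D3:**
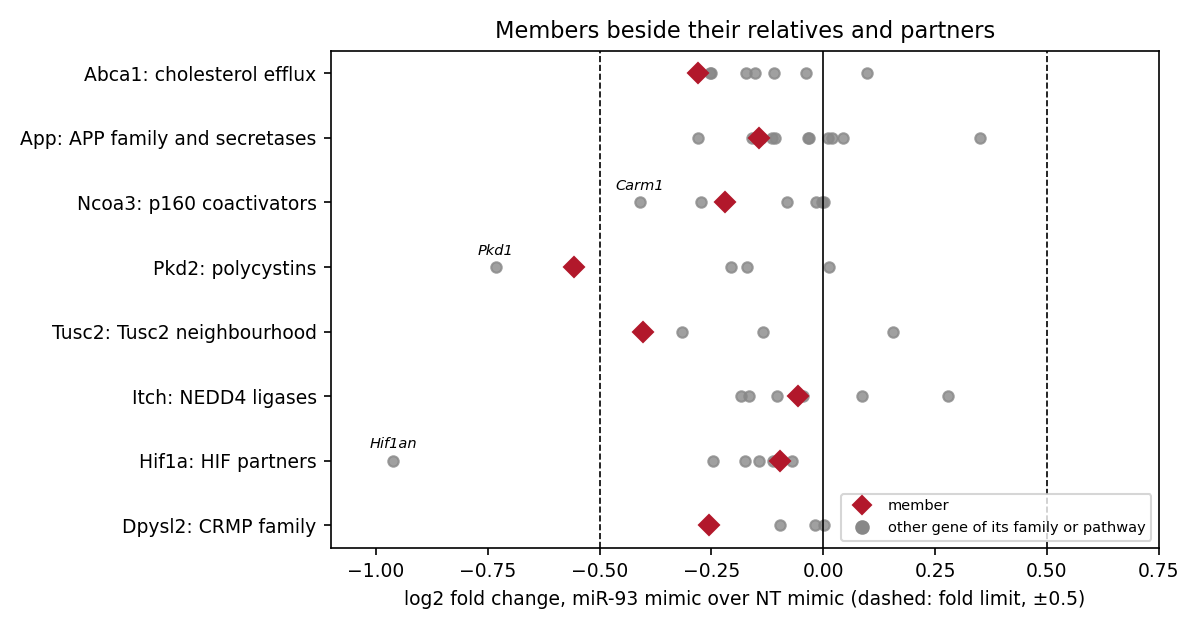
Log2 fold change (x axis) of 8 of the 9 genes (diamonds) and of the listed relatives, partners or neighbours of each over 1 FPKM (circles), 1 line per list, with the fold limit of 0.5 on each side (dashed). Past the limit are Pkd2 (−0.56), its partner Pkd1 (−0.73) and Hif1an (−0.96); Zbtb4 is left out because its list held 1 such gene.

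Set by site class, the 9 genes fell into an order with 1 crossing. For the 5 genes with an 8mer the median was −0.38 on the log2 scale (−0.56 to −0.22), and for the 4 with a 7mer-m8 at best it was −0.12 (−0.25 to −0.06). The crossing was Ncoa3, with an 8mer at −0.22, against Dpysl2, with a 7mer-m8 at −0.25. Over all genes the medians were −0.26 for the 461 with an 8mer, −0.14 for the 1052 with a 7mer-m8 and −0.08 for the 5791 without a site. Past the limit downward were 1 of the 5 genes with an 8mer, beside 23.2% of all genes with an 8mer, and 0 of the 4 with a 7mer-m8, beside 6.65% of all genes of that class. Within its own class each of the 9 lay away from the ends. For genes with an 8mer, the share of the class below the gene was 17.4% for Pkd2, 31.7% for Tusc2 and 33.8% for Zbtb4. It was 46.2% for Abca1 and 56.2% for Ncoa3. For the 7mer-m8 it ran from 29.0% for Dpysl2 through 48.3% for App and 59.0% for Hif1a to 69.3% for Itch.

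**Figure D4:**
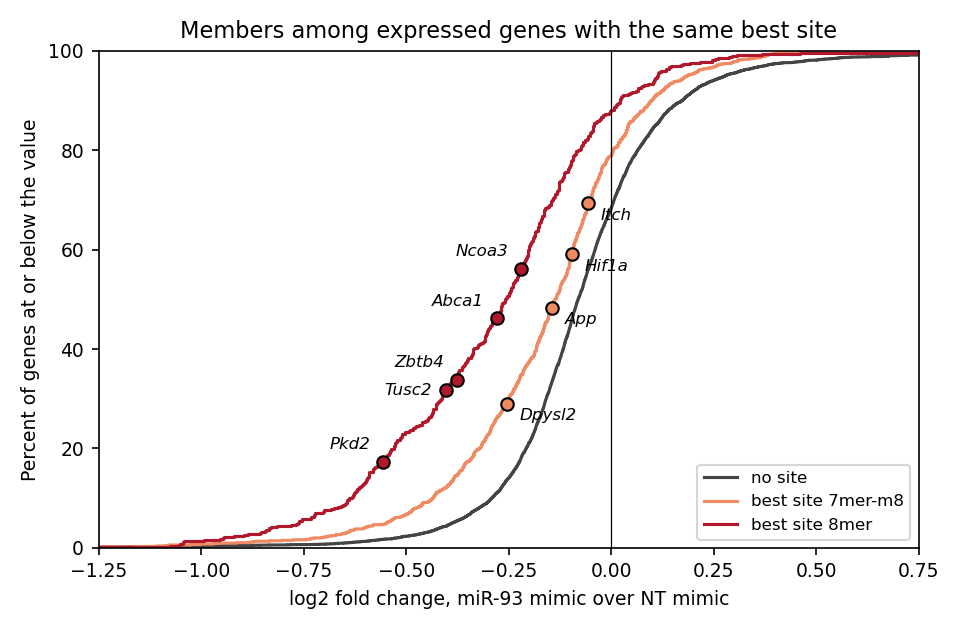
Cumulative share of expressed genes (y axis, percent) at or below each log2 fold change (x axis) for genes with an 8mer, with a 7mer-m8 as the best site and without a site, with the 9 genes as circles on the curve of their class. The circles lie between 17.4% (Pkd2) and 69.3% (Itch), along the middle of their curves.

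The 9 were set beside 28 other genes over 1 FPKM that were listed as reported targets of the family, mostly of the cell cycle, TGF-β signaling and autophagy. Their median was −0.37 on the log2 scale, and 27 of 28 held a site of 7 or 8 bases. Of the 28, 7 passed the limit downward and 0 upward, beside 3.77% and 1.83% of all genes. By site class, 23.2% of all genes with an 8mer and 6.65% of those with a 7mer-m8 at best passed it downward. The largest differences were outside the 9 genes: Ccnd1 (cyclin D1) had 323 FPKM with the miR-93 mimic and 723 FPKM with the NT mimic (−1.16), and Rhoc was at −1.05. At the other end, Bcl2l11, with an 8mer, was at 0.01 and Rb1, with a 7mer-m8, at 0.11. Both sets therefore held genes with seed matches and values near or above the all-gene median. The difference between the sets was not tested, since members were chosen with results known and no value per library was at hand.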

How the data were processed

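Per the study's methods and the submitters' processing notes, poly-A libraries (Illumina TruSeq, paired ends) were checked with FastQC and Trimmomatic, aligned to mouse build mm9 with TopHat2 2.0.4 and quantified with Cufflinks and Cuffdiff. The sources used here give no other version. The FPKM values were computed and pooled over the 2 libraries of each group by the authors before they were deposited. The labels do not say whether libraries came from separate cultures. The table also holds the authors' fold changes, test statistics, p-values and q-values, which were not used.

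Of 29286 rows, 3650 had no gene name, 287 had several genes and 27 had names turned into dates or numbers. For a symbol with several rows the row with the highest mean FPKM was kept. Log2 ratios were taken from FPKM plus 0.1, and genes under a mean FPKM of 1 were left out. With 1 value per gene and group, depth is unknown and no test was made. Overlap of loci was read from the mm9 coordinates of the rows. For sites, 3′ UTRs of 30 bases or more, the longest per gene, came from GENCODE M21 (GRCm38) by symbol for 10020 (93.0%) of 10773 genes, and flanks were 30 bases on each side. Coordinates of mm9 and GRCm38 were not converted. The site search and counts (Python 3.11.15, numpy 2.4.6, pandas 2.3.3, matplotlib 3.10.9) were tested on simulated data. The members and gene lists were chosen with earlier results of these data known. The rule for named genes took all 9, their paralogues and the 2 lowest and 2 highest genes of each list. Some paralogues (such as Abca2, Abca3 and Smurf2) are given only within the counts and medians of their lists. Those under 1 FPKM are given only within the number listed, and Sulf2 was named after its values were seen. The listed genes Bmpr2, Zbtb38, Hyal1 and Nprl2 had no row of their own and so no value. Alternatives were the pseudocount, the filter, the fold limit, centering, summing rows and the choice of UTR. Some listed marker genes are not reported here.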

Additional observations from a re-analysis of the deposited data

How the results depend on the processing

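No paired analysis was possible because the deposited table holds 1 pooled value per group, and for the same reason no library could be left out. Over 4 settings (pseudocount 0, pseudocount 1, centering on the all-gene median, summing rows of a symbol), 34 of 36 values of the 9 genes kept their direction and their side of the limit of 0.5. Much of this was fixed in advance. Each of the 9 symbols had 1 row, so summing changed nothing, and a pseudocount cannot turn the direction of a ratio. Of the 4 settings, only centering could therefore turn a direction. The exceptions came with centering: Itch turned to 0.032, and Pkd2, at −0.47, was no longer past the limit, which left 0 of the 9 past it. With a limit of 0.25, 5 of the 9 were past it downward (17.4% of all genes), and with a limit of 1, 0 were (0.446%). The median of all genes with an 8mer, −0.26, was itself past 0.25. Without a minimum FPKM, 2.52% of all genes were past 0.5 downward and 4.52% upward, and at a minimum of 5, which left 7 of the 9 genes, 3.35% and 0.692%. With a pseudocount of 1 these shares were 2.55% and 1.14%. The median of the 9 ran from −0.26 (pseudocount 0) to −0.17 (centered). In the shortest annotated UTR of each gene, 5 of the 9 kept a site of 7 or 8 bases, and 5 held an 8mer in the longest.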
